A study of Mus musculus with 12 samples.

Results

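The 2 chronic disease models of the series were compared directly, atherosclerosis (ApoE) against hypertension (HTN), with 6 of its 12 bone marrow RNA libraries, 3 from each model. HTN mice were wild-type C57BL/6J animals that received angiotensin II from an osmotic minipump for 8 weeks. ApoE mice were *Apoe*-/-, carrying the *Apoe*(tm1Unc) knockout allele, and ate a western diet for 10 weeks. All mice were 20 weeks old, each gave 1 library, and the libraries keep the numbers 2, 3 and 4 that the labels give them. The groups differ in genotype, in diet and in the infusion, so these 3 factors cannot be told apart in any value below. The 3 naive C57BL/6J controls and the 3 libraries from mice with myocardial infarction (MI) were not part of the contrast. They entered the estimate of the spread, and naive controls are quoted as levels and as the reference of 2 gene lists' medians. Cells were depleted of lineage-positive cells and sorted as TER-119- CD41- CD45- CD31hi SCA-1+ bone marrow endothelial cells. *Pecam1*, which encodes CD31, and *Ly6a*, which encodes SCA-1, therefore belong to the gate.

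Endothelial cells line the arterioles and sinusoids of the marrow and are part of the niche that keeps blood stem cells. Apolipoprotein E carries cholesterol-rich remnant particles to receptors in the liver, and mice without it accumulate them in plasma, more so on a western diet. Cells that take up cholesterol make oxysterols, which activate liver X receptors and thereby cholesterol efflux genes, while the SREBP2 factor that drives sterol synthesis is held back when membranes are rich in cholesterol. Angiotensin II acts through the receptor encoded by *Agtr1a* to constrict vessels and raise blood pressure.

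Total counts were 18107945 to 21836869 in the ApoE libraries and 19423115 to 22767897 in the HTN libraries. Levels of single genes are TMM-scaled CPM, a unit that sets counts against the library total without regard to gene length. Summed marker levels are CPM without TMM scaling. Without that scaling, 3 counts, the level taken as the floor, correspond to 0.119 to 0.176 CPM over all 12 libraries. The log2 levels of replicates correlated at 0.951 to 0.960 where ApoE2 was one of the pair, at 0.977 between ApoE3 and ApoE4, and at 0.976 to 0.988 among HTN libraries. ApoE2 thus stood somewhat apart from the other ApoE libraries. Endothelial markers were present in every library, yet the 24 of them together held 220 to 356 CPM in ApoE and 215 to 244 CPM in HTN, with *Cdh5*, the endothelial cadherin, at 2.00 to 3.87 CPM. The summed neutrophil markers held 36763 to 72335 CPM in ApoE and 40268 to 57360 CPM in HTN, and the erythroid markers 14075 to 47289 and 21596 to 29141 CPM. These blood cell markers held far more of the counts than the endothelial markers in both groups, and the part of blood cell RNA in the results below was not tested. In such bulk libraries, fewer cells of a type and less RNA per cell cannot be told apart.

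The comparison tested 15999 genes, and 10 of them (0.0625%) differed at an adjusted p under 0.05 in the quasi-likelihood test of edgeR, after Benjamini-Hochberg adjustment. Of the 10, 6 (0.0375% of genes tested) were higher in ApoE, namely *Pdcd5-ps*, *Oas1g*, *Gm8146*, *Abca1*, *Gm1840* and *Oas1a*, and 4 (0.025%) were lower, namely *Apoe*, *Fgfbp3*, *Ube2m* and *Ceacam19*. The 10 comprise 3 genes within 20 Mb of *Apoe* on chromosome 7, 3 processed pseudogenes elsewhere, and 4 protein-coding genes elsewhere. In each of the 10, the 3 ApoE libraries lay outside the range of all 9 other libraries, which held for 2.25% of all genes tested. The median log2 fold change over all genes, which TMM scaling centers, was 0.031. At an unadjusted p under 0.05, 950 genes (5.94%) differed, of which 617 (3.86%) were higher and 333 (2.08%) lower in ApoE.

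**Figure D1:**
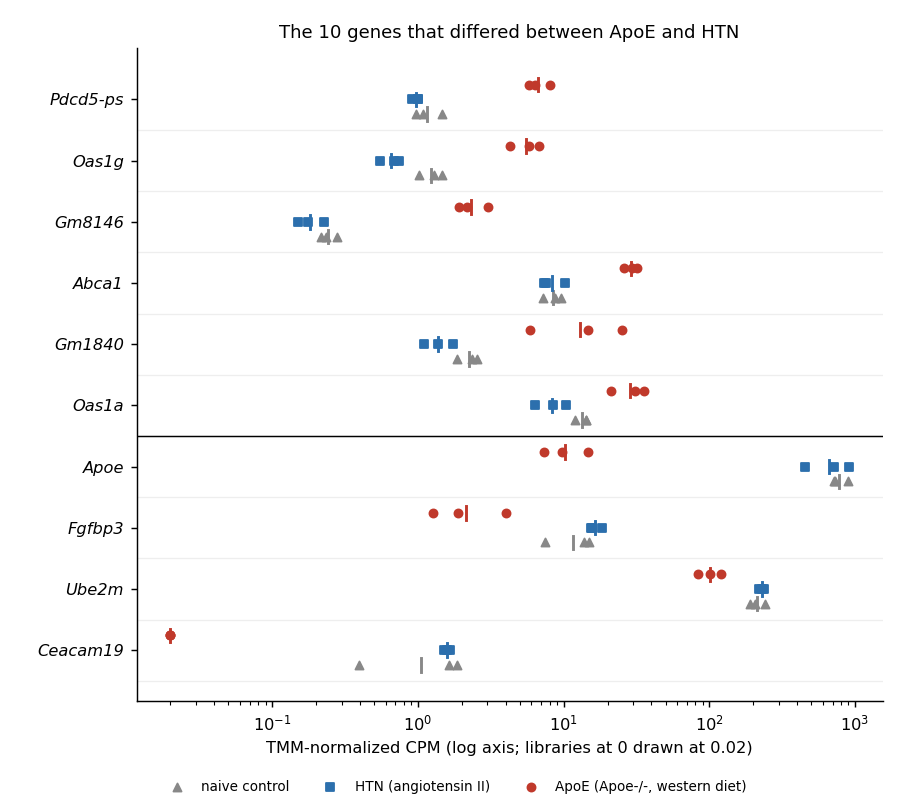
TMM-normalized CPM on a log axis for the 10 genes that differed between ApoE (red circles) and HTN (blue squares), with naive controls (grey triangles); each point is 1 library and each bar a geometric mean, and libraries at 0 are drawn at the left edge. For the 6 upper genes the ApoE points lie right of all others, for the 4 lower genes left of them, and the HTN points lie closer to the naive controls than the ApoE points do.

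*Apoe* itself checked the labels of the knockout. It stood at 9.78, 7.28 and 14.8 CPM in the ApoE libraries against 905, 713 and 450.5 CPM in HTN. The few remaining reads, 124 to 290 counts a library, lay far below every other library, and naive controls averaged 781 ± 98.4 CPM (SD, n = 3). The log2 fold change was -6.02 (SE 0.45, adjusted p = 7.89e-05 by edgeR's quasi-likelihood test).

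Genes near a targeted locus were counted apart, because a knockout bred onto another strain can keep DNA of the donor strain around the target. Whether such DNA was present in these mice was not tested. Of 389 genes tested within 20 Mb of *Apoe* (chr7:19696109-19699188), 3 differed (0.771%): *Apoe*, *Ceacam19* and *Ube2m*. Unadjusted p was under 0.05 for 68 of the 389 (17.5%), 33 higher and 35 lower in ApoE, against 882 of 15610 genes elsewhere (5.65%). The share was highest next to *Apoe*, from 18 of 47 genes within 1 Mb (38.3%) to 11 of 52 between 1 and 5 Mb (21.2%), 16 of 126 between 5 and 10 Mb (12.7%) and 23 of 164 between 10 and 20 Mb (14%). Beyond 20 Mb it was close to the rest of the genome, 7 of 152 up to 40 Mb (4.61%) and 41 of 664 farther out (6.17%). All 3 ApoE libraries lay outside the other 9 for 7.46% of flank genes and for 2.12% of genes elsewhere.

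*Ceacam19*, a member of the carcinoembryonic antigen family 0.177 Mb from *Apoe* (chr7:19875742-19887965), had no count in any ApoE library. HTN libraries held 35, 38 and 30 counts, or 1.59, 1.66 and 1.502 CPM, and naive controls averaged 1.29 CPM. Against the floor of 3 counts per library it was at least 10.3-fold lower in ApoE (adjusted p = 0.0164, edgeR's quasi-likelihood test). *Ube2m*, which encodes the enzyme that passes NEDD8 to cullins, lies 6.66 Mb from *Apoe* (chr7:13035120-13038275). It stood at 83.7, 102 and 120.3 CPM in ApoE against 231, 219 and 239 CPM in HTN, with no overlap and with naive controls at 212 CPM (log2 fold change -1.17, SE 0.16, adjusted p = 0.0118, edgeR's quasi-likelihood test). Both calls were lost when any of several libraries was left out, while both genes stayed lower in ApoE in these fits. Without ApoE3, HTN2, HTN3 or HTN4 their adjusted p lay between 0.0621 and 0.0914, and *Ceacam19* was also lost without ApoE4 (0.0736).

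Other genes of the flank did not pass. *Sae1*, a subunit of the SUMO-activating enzyme 3.31 Mb away, was at 240.4, 269 and 249 CPM in ApoE and 425, 389 and 422.5 CPM in HTN (log2 fold change -0.71, adjusted p = 0.152). *Tomm40*, a pore subunit of the mitochondrial outer membrane and the next gene to *Apoe*, was at 139, 120.2 and 93.97 CPM against 177, 158 and 183 CPM (adjusted p = 0.426). Neither gene's groups overlapped, and in both the ApoE libraries were the lower ones. *Mill2*, an MHC class I-like gene, lay above HTN in all 3 ApoE libraries (log2 fold change 1.95, adjusted p = 0.203). *Apoc4* had 24, 29 and 11 counts in ApoE and 2, 1 and 1 in HTN, a ratio of 17.5 in CPM (counting interval 6.53 to 66.3, adjusted p = 0.0827). *Apoc4* overlaps Gm44805 on the same strand, so reads of these 2 genes may be mixed. The edgeR test gave each of these adjusted values.

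**Figure D2:**
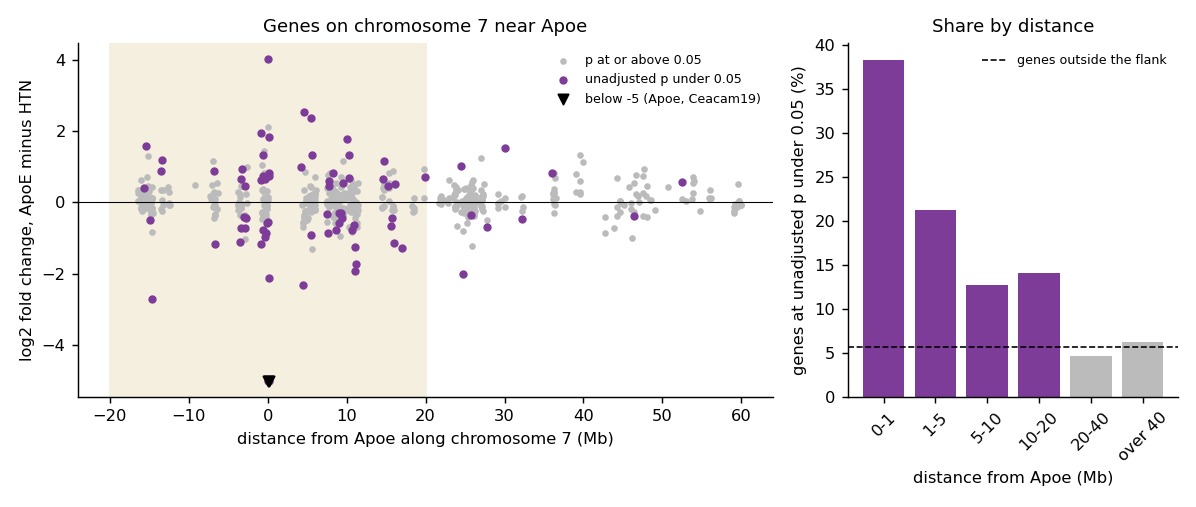
Left, log2 fold change of ApoE against HTN for each tested gene within 60 Mb of Apoe on chromosome 7, by distance from Apoe in Mb, with genes at unadjusted p under 0.05 in purple, the 20 Mb flank shaded and genes below the axis drawn as triangles. Right, the percent of genes at unadjusted p under 0.05 by distance class, falling from 38.3% within 1 Mb to 4.61% between 20 and 40 Mb, with a dashed line at 5.65% for all genes outside the flank.

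The 3 called pseudogenes rose in ApoE, and the protein-coding gene most similar to each lies in the *Apoe* flank. Processed pseudogenes are copies of messenger RNA inserted elsewhere in the genome, and short reads of a parent gene can match them. The 3 pairs are shown as 60 bases of the parent's coding sequence with the same stretch of the pseudogene, from GENCODE M21 transcripts of GRCm38, to show how few bases separate them. Capitals mark the bases that differ.
Pdcd5: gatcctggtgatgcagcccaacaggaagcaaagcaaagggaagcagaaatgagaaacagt
Pdcd5-ps, chr1:189277698-189277757, minus strand: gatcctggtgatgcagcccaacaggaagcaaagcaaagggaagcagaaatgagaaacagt
Haus5: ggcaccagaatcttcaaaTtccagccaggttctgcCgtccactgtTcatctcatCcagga
Gm8146, chr1:181282868-181282927, plus strand: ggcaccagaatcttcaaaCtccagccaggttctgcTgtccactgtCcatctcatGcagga
Gpi1: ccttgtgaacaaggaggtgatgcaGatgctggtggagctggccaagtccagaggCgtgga
Gm1840, chr8:5639739-5639798, plus strand: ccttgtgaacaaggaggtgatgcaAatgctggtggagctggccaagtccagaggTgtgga
Over their whole aligned lengths, *Pdcd5-ps* was 100% identical to *Pdcd5* over 381 bases, *Gm8146* 97.4% to *Haus5* over 1860 bases and *Gm1840* 98.7% to *Gpi1* over 1046 bases. Reads were 50 bases long. Of the 50-base windows of each pseudogene, 332 of 332 occurred unchanged in *Pdcd5*, 551 of 1798 (30.6%) in *Haus5* and 527 of 1383 (38.1%) in *Gpi1*. Reads of the pseudogenes and of their parents therefore could not be fully separated, and their levels are uncertain.

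*Pdcd5-ps* (chr1:189277443-189277823) stood at 6.36, 8.10 and 5.81 CPM in ApoE against 0.908, 1.01 and 1.00 CPM in HTN (log2 fold change 2.79, SE 0.27, adjusted p = 0.00078). Its parent *Pdcd5*, a gene linked to programmed cell death, was at 10.9, 9.34 and 6.16 CPM in ApoE and at 19.6, 17.5 and 20.7 CPM in HTN (log2 fold change -1.13, adjusted p = 0.0827). The pseudogene was high and the parent low in each ApoE library, without overlap in either. *Pdcd5-ps* also lies inside Kcnk2 on the same strand. *Gm8146* (chr1:181282046-181283892) was at 1.91, 2.17 and 3.01 CPM in ApoE and 0.227, 0.175 and 0.1502 CPM in HTN (log2 fold change 3.63, SE 0.42, adjusted p = 0.00326). Its parent *Haus5*, a subunit of the augmin complex of the spindle, was at 6.80, 5.93 and 4.99 CPM against 9.67, 8.63 and 9.36 CPM (log2 fold change -0.64, adjusted p = 0.637). Here too pseudogene and parent lay on opposite sides of HTN. *Gm1840* (chr8:5639580-5641011) was at 5.87, 14.6 and 25.2 CPM in ApoE and 1.36, 1.75 and 1.10 CPM in HTN (log2 fold change 3.43, SE 0.45, adjusted p = 0.0100). Its parent *Gpi1*, glucose-6-phosphate isomerase of glycolysis, overlapped between the groups, at 332, 417 and 593 CPM against 408, 434 and 362 CPM (adjusted p = 0.949). The edgeR call for *Gm8146* was lost without HTN3 (adjusted p = 0.0621) and with the plasmacytoid dendritic cell marker share as a covariate (0.163). That for *Gm1840* was lost without HTN2, HTN3 or HTN4 (0.0784, 0.0621 and 0.0902) and in a fit of only the 6 libraries (0.109).

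The pattern was examined over all pseudogenes after these 3 had been seen. Of 583 tested pseudogenes outside the flank with a protein-coding match of at least 90% identity over at least 100 bases, 17 had that match in the flank. These 17 include the 3 that prompted the count, so the number that passed the adjusted threshold, 3, was known in advance. With the 3 included, 5 of the 17 had an unadjusted p under 0.05, all 5 higher in ApoE (29.4%). Of the 566 with a match elsewhere, 0 passed, and 9 were higher and 11 lower at unadjusted p under 0.05 (3.53%). The other 2 of the 5 were *Gm45246*, similar to *Hnrnpl* and at 0.578, 1.06 and 1.22 CPM against 0, 0 and 0.1001 CPM (adjusted p = 0.0883), and *Akt2-ps*, similar to *Akt2* (log2 fold change 3.28, adjusted p = 0.272, edgeR).

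Outside the flank, interferon response genes lay higher in ApoE than in HTN almost throughout the list, and 2 of them passed. Type I interferon binds its receptor and activates a complex of STAT factors with IRF9, which switches on antiviral effectors such as the oligoadenylate synthetases, the IFIT and Mx proteins and ISG15. Of 72 listed interferon response genes 71 were tested and 70 (98.6%) were above 0 in ApoE relative to HTN, against 54.6% of all genes. *Oas1g* and *Oas1a* passed the adjusted threshold. At an unadjusted p under 0.05, 53 of the 71 (74.6%) were higher in ApoE and 0 lower, against 3.86% and 2.08% of all genes, and in 47 (66.2%) every ApoE library lay above every HTN library, against 5.81%. The median log2 fold change of the list was 0.70, against 0.031 over all genes. Taken against naive controls, the list's median was 0.62 in ApoE and -0.19 in HTN, 2 values that share their controls.

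*Oas1g* and *Oas1a*, neighbors on chromosome 5, encode oligoadenylate synthetases, which sense double-stranded RNA and activate RNase L. Their promoters are shown because both genes rose and because both carry a pair of overlapping matches to the core of the interferon-stimulated response element. The sequences are RefSeq windows of GRCm38.p6 from 250 bases before to 50 bases after the start of transcription, and capitals mark the letters GAAA, any 2 bases and GAAA again, searched on both strands. *Oas3*, of the same family, is given for comparison.
Oas1g, chr5:120887564-120887863, minus strand: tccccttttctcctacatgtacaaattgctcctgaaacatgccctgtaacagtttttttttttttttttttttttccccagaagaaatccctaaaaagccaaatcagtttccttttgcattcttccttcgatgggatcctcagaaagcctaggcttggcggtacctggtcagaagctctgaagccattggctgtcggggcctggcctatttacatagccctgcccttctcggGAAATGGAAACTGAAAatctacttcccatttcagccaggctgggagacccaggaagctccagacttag
Oas1a, chr5:120907476-120907775, minus strand: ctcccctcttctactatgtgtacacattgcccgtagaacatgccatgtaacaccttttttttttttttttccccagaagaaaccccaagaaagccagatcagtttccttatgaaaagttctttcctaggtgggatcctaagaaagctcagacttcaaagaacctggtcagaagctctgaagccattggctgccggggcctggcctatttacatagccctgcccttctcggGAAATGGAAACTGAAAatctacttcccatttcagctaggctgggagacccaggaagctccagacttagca
Oas3, chr5:120777610-120777909, minus strand: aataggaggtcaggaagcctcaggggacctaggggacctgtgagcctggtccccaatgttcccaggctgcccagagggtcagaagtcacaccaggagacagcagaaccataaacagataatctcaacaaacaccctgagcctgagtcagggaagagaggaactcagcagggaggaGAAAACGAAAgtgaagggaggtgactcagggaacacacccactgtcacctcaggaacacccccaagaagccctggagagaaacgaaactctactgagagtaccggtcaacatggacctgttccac
The matches began 18 and 12 bases before the start in *Oas1g*, 20 and 14 bases before it in *Oas1a* and 75 bases before it in *Oas3*. The motif occurred in 1131 of 32851 RefSeq windows (3.44%). Counted by gene, it was found in 27 of the 52 interferon response genes that had a window (51.9%), in 10 of 11 genes of immunity GTPases (90.9%), and in 1079 of all 27025 genes (3.99%). A match describes the letters of the window and not a bound site.

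*Oas1g* (chr5:120876142-120887613) stood at 4.27, 6.81 and 5.76 CPM in ApoE and 0.681, 0.744 and 0.551 CPM in HTN. Naive controls were at 1.01, 1.46 and 1.28 CPM, below every ApoE library and above every HTN library. The log2 fold change of ApoE against HTN was 3.07 (SE 0.33, adjusted p = 0.00186 by edgeR's quasi-likelihood test). *Oas1a* (chr5:120896256-120907521) was at 20.99, 31.01 and 35.6 CPM against 10.4, 8.50 and 6.36 CPM, again without overlap (log2 fold change 1.79, SE 0.27, adjusted p = 0.0265 by the same test). Its naive controls, at 11.9, 14.2 and 14.2 CPM, also lay between ApoE and HTN. These paralogs are close copies. In the longest transcript of *Oas1a*, 1044 of 1836 windows of 50 bases (56.9%) also occurred in *Oas1g*. Reads from these windows cannot be assigned to either gene by sequence, and how far the 2 calls are separate measurements was not tested. The edgeR call for *Oas1a* was lost without ApoE3, ApoE4, HTN2, HTN3 or HTN4 (adjusted p 0.0697 to 0.212), while *Oas1g* remained past the threshold in all of these fits.

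The other synthetases lay in the same direction without passing. *Oas2* was at 61.6, 24.1 and 38.9 CPM in ApoE and 7.26, 9.06 and 11.7 CPM in HTN (log2 fold change 2.15, adjusted p = 0.152). *Oas3* (1.21, adjusted p = 0.337), *Oasl1* (1.33, 0.354) and *Oasl2* (1.52, 0.487) also had no overlap between groups. Among effectors, *Rsad2*, which encodes viperin, was at 283, 404 and 369 CPM against 219, 153 and 198 CPM (log2 fold change 0.89, adjusted p = 0.300), and *Ifit1* at 28.9, 26.8 and 28.2 CPM against 16.5, 12.8 and 11.2 CPM (1.05, 0.465). ApoE libraries were the higher ones in both. *Trim30d*, of the TRIM family, came nearest to the threshold at 22.2, 15.7 and 19.8 CPM against 8.94, 8.01 and 7.96 CPM (1.21, adjusted p = 0.0901), and it overlaps Gm16464 on the same strand. *Ifi207*, of the AIM2-like receptor family (1.17), and *Ifi27*, a mitochondrial interferon-induced protein (1.09), followed at adjusted p = 0.105. *Ifi44* stood at 4.00, 4.99 and 8.46 CPM against 1.14, 0.876 and 1.05 CPM (2.50, adjusted p = 0.148).

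Regulators of the pathway did not pass either. *Irf7*, the factor that amplifies type I interferon, was at 228, 172 and 213 CPM in ApoE and 116, 81.5 and 99.2 CPM in HTN (log2 fold change 1.05, adjusted p = 0.517). *Irf9* had a log2 fold change of 0.74 (adjusted p = 0.452) and *Stat2* 0.48 (0.517). In these 3 the groups did not overlap. Not every library followed the list. *Isg15*, a ubiquitin-like modifier, was at 36.2 CPM in ApoE2 but 119 and 114 CPM in ApoE3 and ApoE4, against 45.5, 27.2 and 33.3 CPM in HTN. *Usp18*, the protease that removes ISG15, showed the same split, 33.2 against 84.6 and 101.4 CPM, with HTN at 36, 31.4 and 22.1 CPM. ApoE2 thus lay within the HTN range for these genes, while it was the highest library for *Oas2*, *Irf7* and *Oasl2*. *Isg20*, an exonuclease, was the only tested member below 0 (-0.12).

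**Figure D3:**
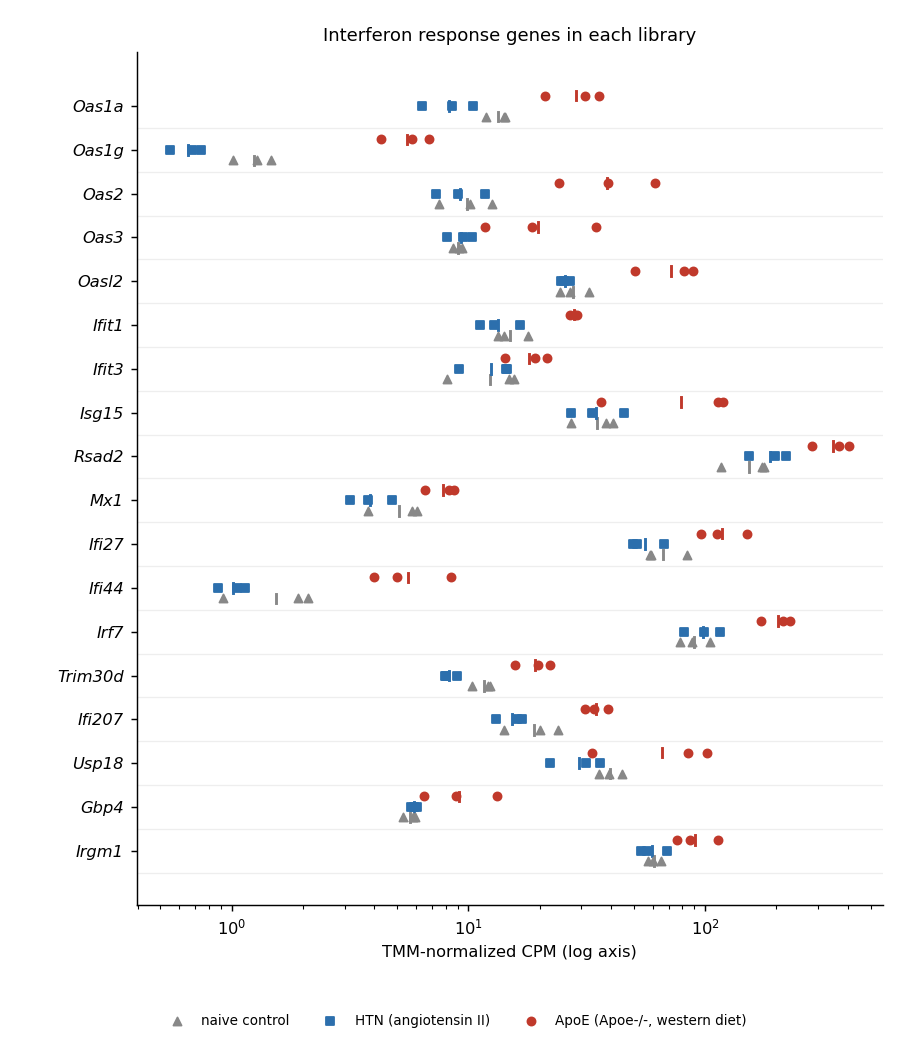
TMM-normalized CPM on a log axis for 18 interferon response genes and immunity GTPases in each ApoE (red circles), HTN (blue squares) and naive control library (grey triangles), with bars at the geometric means. ApoE libraries lie above HTN libraries in most genes, while ApoE2 overlaps HTN for Isg15 and Usp18.

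Plasmacytoid dendritic cells are the main producers of type I interferon, and the sort gate would remove them. Their 19 markers together held 1225 to 1340 CPM in ApoE and 1016 to 1022 CPM in HTN, and 997 to 1041 against 852 to 897 CPM when genes of the interferon list were left out. Of 18 tested markers 16 were above 0, against 54.6% of all genes. At an unadjusted p under 0.05, 7 (38.9%), among them *Lair1* of the *Apoe* flank, were higher and 0 lower, against 3.86% and 2.08% of all genes. *Irf7*, which is also in the interferon list, is among these 7. The counts were not repeated for the 17 markers outside the interferon list, so the 2 lists are not independent here. In this list 0 passed the adjusted threshold. *Siglech*, their surface lectin, was at 49.4, 67.3 and 88.2 CPM in ApoE and 43.1, 44.4 and 28.7 CPM in HTN (log2 fold change 0.82, adjusted p = 0.402, edgeR). With the share of these markers as a covariate, an alternative chosen after seeing the data, the interferon median was 0.50, 61 of 71 genes were above 0, 31 had an unadjusted p under 0.05 and 1, *Oas1g*, remained past the threshold. The share used left out genes of the interferon list and did not overlap between the groups. This fit therefore cannot fully separate the marker level from the group, and no conclusion is drawn from the lower values. Whether the marker level has a part in the interferon values was not tested.

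The immunity GTPases, which act on membranes around intracellular pathogens, lay in the same direction with smaller values. All 17 tested were above 0, against 54.6% of all genes, 6 (35.3%) had an unadjusted p under 0.05, against 3.86% of all genes in that direction, and the median was 0.45. *Irgm1* was at 76.1, 86.6 and 113 CPM against 69.0, 56.8 and 53.6 CPM (log2 fold change 0.62, adjusted p = 0.422), and *Gbp4* at 13.2, 6.46 and 8.86 CPM against 6.08, 5.69 and 5.91 CPM (0.69, 0.665). Of 28 genes of MHC and antigen presentation 22 were above 0 and 5 (17.9%) had an unadjusted p under 0.05, all higher, against the same shares of all genes. *B2m*, the light chain of MHC class I, was at 1138, 959.5 and 904 CPM in ApoE against 665, 665 and 622 CPM in HTN (0.62, 0.437), and *H2-Q7* at 22.4, 25.02 and 24.4 CPM against 15.8, 16.5 and 14.7 CPM (0.61, 0.337). *H2-Q6* and *H2-Q7* are near-identical paralogs. None of these genes passed edgeR's adjusted threshold.

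Lipid genes gave 1 further call. *Abca1* (chr4:53030787-53159895), which moves cholesterol out of cells onto apolipoprotein A-I and is a classic target of liver X receptors, was at 31.7, 26.0 and 29.4 CPM in ApoE and 10.2, 7.36 and 7.56 CPM in HTN. Naive controls averaged 8.52 CPM, in the range of HTN. The log2 fold change was 1.79 (SE 0.22, adjusted p = 0.00704 by edgeR's quasi-likelihood test), and the call was lost without HTN3 (0.0621) or HTN4 (0.0675). Of 17 tested liver X receptor targets and efflux genes, 15 were above 0, against 54.6% of all genes, 8 (47.1%) had an unadjusted p under 0.05, all higher, against 3.86%, and the median was 0.49. *Apoc1* and *Apoc4* of this list lie in the *Apoe* flank, and without them 13 of 15 were above 0, 7 had an unadjusted p under 0.05 and the median was 0.46. *Pltp*, the phospholipid transfer protein of plasma, was at 13.9, 19.0 and 34.0 CPM against 8.08, 6.87 and 4.46 CPM (1.78, adjusted p = 0.0810) and overlaps *Ctsa* on the opposite strand. *Mylip*, a ubiquitin ligase of the lipid pathway, was at 44.5, 51.7 and 52.5 CPM against 37.5, 37.4 and 34.3 CPM (0.45, 0.480). *Scd1*, a fatty acid desaturase, was at 58.6, 35.2 and 32.6 CPM against 21.8, 22.4 and 21.9 CPM (0.94, 0.201). None of these 3 genes overlapped between the groups. *Abcg1*, which exports cholesterol to HDL, overlapped, with ApoE2 at 325 CPM and the other ApoE libraries at 70.1 and 71.0 CPM against 42.9, 51.3 and 106 CPM in HTN (1.22, 0.826). The receptor genes themselves were at 0.33 (*Nr1h3*) and -0.31 (*Nr1h2*).

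Sterol synthesis lay the other way. Of 24 tested genes of sterol synthesis and LDL uptake 23 were below 0 in ApoE, against 45.4% of all genes, and 9 (37.5%) had an unadjusted p under 0.05, all lower, against 2.08%. None passed the adjusted threshold in the edgeR test, while DESeq2 called 3 of them and the likelihood-ratio test 1. The median was -0.39, and against naive controls it was -0.48 in ApoE and -0.13 in HTN. *Sqle*, squalene epoxidase, was at 24.8, 21.97 and 30.7 CPM in ApoE and 49.2, 47.9 and 50.02 CPM in HTN (log2 fold change -0.92, SE 0.21, adjusted p = 0.238), beside 46.2 CPM in naive controls. *Mvk*, mevalonate kinase, was at 8.76, 9.51 and 6.98 CPM against 13.9, 14.1 and 14.2 CPM (-0.74, adjusted p = 0.287). In both genes all ApoE libraries lay below all HTN libraries. *Srebf2*, which encodes SREBP2, was at 21.7, 28.5 and 32.2 CPM against 35.3, 40.8 and 37.5 CPM (-0.46, 0.608). *Dhcr7*, a reductase of the last steps, was the only member above 0 (0.39). The scavenger receptors, which take up modified lipoproteins, showed no such direction: 13 of 20 (65%) were above 0, against 54.6% of all genes, with a median of 0.18. At an unadjusted p under 0.05, 1 gene (5%) was higher and 1 (5%) lower, against 3.86% and 2.08% of all genes.

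**Figure D4:**
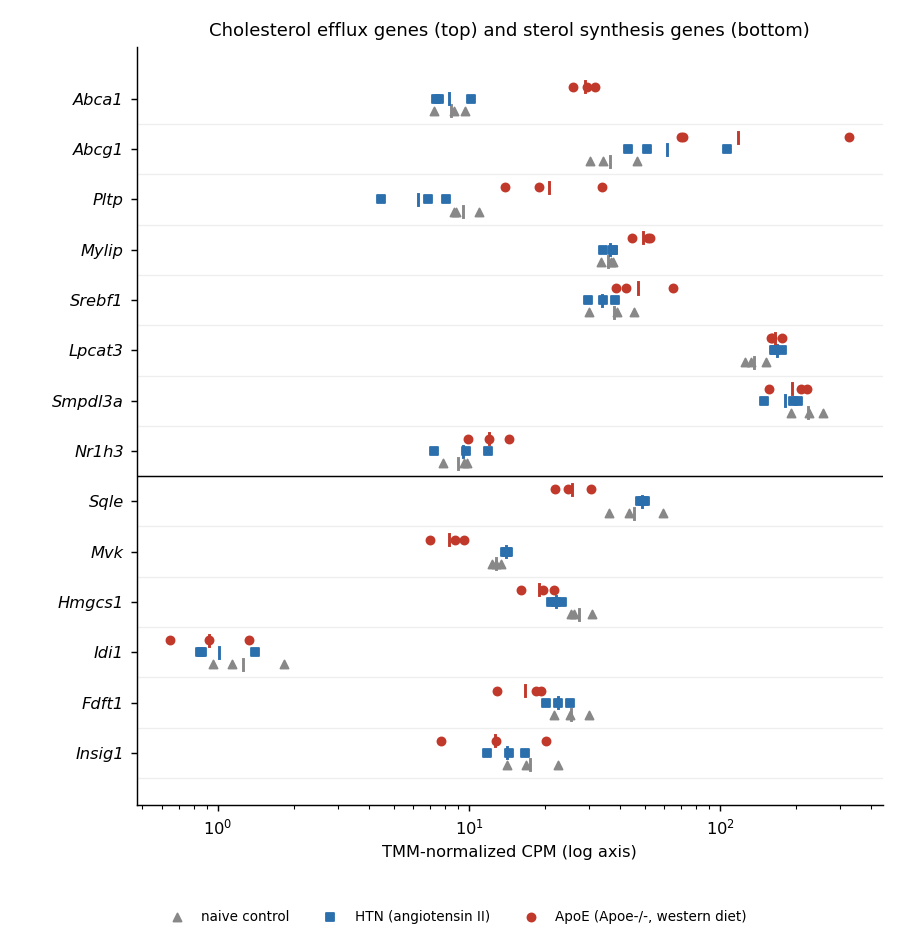
TMM-normalized CPM on a log axis for liver X receptor genes and targets (upper block) and sterol synthesis genes (lower block) in each ApoE (red circles), HTN (blue squares) and naive control library (grey triangles), with bars at the geometric means. Abca1, Pltp and Mylip lie higher in every ApoE library and Sqle and Mvk lower, while Lpcat3 overlaps between the groups.

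*Fgfbp3*, which encodes a secreted protein that binds fibroblast growth factors, was the only gene outside the flank that passed and was lower in ApoE. It was at 4.05, 1.88 and 1.27 CPM in ApoE and 15.5, 15.5 and 18.3 CPM in HTN, with naive controls at 12.1 CPM (chr19:36917550-36919615, log2 fold change -2.76, SE 0.38, adjusted p = 0.0118 by edgeR's quasi-likelihood test). The ApoE libraries were low and HTN resembled the controls. The call was lost without ApoE3 (adjusted p = 0.115), HTN3 (0.0621) or HTN4 (0.0675), in a fit of only the 6 libraries (0.109), and with the macrophage (0.0714) or plasmacytoid dendritic cell marker share (0.102) as a covariate. *Btaf1*, a regulator of the TATA-binding protein, lies 6.5 kb from *Fgfbp3* and was at 54.7, 50.9 and 47.6 CPM in ApoE against 83.8, 89.6 and 79.5 CPM in HTN (-0.72, adjusted p = 0.0883). *Ide*, the insulin-degrading enzyme 349.1 kb away, was at 40.5, 54.0 and 68.2 CPM against 105, 98.6 and 86.1 CPM (-0.83, adjusted p = 0.207) and overlaps Rpl10-ps6 on the same strand. The 3 ApoE libraries lay below all 9 others for each of these 3 genes. Of the 16 genes tested within 1 Mb, not all went this way. *Gm47773* had a log2 fold change of 1.16 (adjusted p = 0.646), with ApoE above HTN without overlap, *Exoc6* one of 0.34, and *Tnks2* and *Cpeb3*, next to the 3 genes, 0.06 and 0.21. These 4 were picked with their values in view.

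Genes of the renin-angiotensin system were of interest because HTN mice received angiotensin II. Of 17 tested, 6 (35.3%) were above 0, against 54.6% of all genes. At an unadjusted p under 0.05, 1 (5.88%) was higher and 2 (11.8%) were lower, against 3.86% and 2.08% of all genes, and 0 passed the adjusted threshold. *Ace*, the angiotensin-converting enzyme, was at 6.09, 4.99 and 8.66 CPM in ApoE and 2.27, 2.76 and 3.10 CPM in HTN (log2 fold change 1.28, SE 0.33, adjusted p = 0.337), with naive controls at 2.00 CPM. *Agtr1a* was at 11.3, 14.6 and 11.5 CPM in ApoE and 18.1, 15.5 and 15.3 CPM in HTN (-0.39, adjusted p = 0.841). The HTN libraries were the lower ones for *Ace* and the higher ones for *Agtr1a*, for which they lay above all 9 others, while the HTN libraries lay outside the other 9 for 1.26% of all genes. *Anpep* and *Ctsg*, 2 peptidase genes of the list, were lower in fitted value with overlapping libraries (-1.21 and -0.56). Genes of vascular tone and nitric oxide gave 0 of 21 at unadjusted p under 0.05 and those of superoxide and antioxidant defense 0 of 24, with medians of 0.28 and 0.01.

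*Il6*, a cytokine that acts on marrow progenitors, was at 5.87, 5.70 and 5.76 CPM in ApoE and 2.09, 3.68 and 3.66 CPM in HTN, with naive controls at 1.87 CPM. The ApoE libraries were tightly grouped above HTN, but the difference did not pass (log2 fold change 0.88, SE 0.31, adjusted p = 0.646, edgeR). *Vcan*, which encodes the proteoglycan versican, was at 5.78, 4.82 and 7.79 CPM against 5.04, 8.36 and 4.51 CPM and overlapped fully (0.04, SE 0.53, adjusted p = 0.995), and its sign changed when ApoE4, HTN2 or HTN4 was left out (-0.18, -0.07 and -0.13). It overlaps 2 genes on the opposite strand. Of 36 cytokine and inflammatory signaling genes 30 were above 0 and 6 (16.7%) had an unadjusted p under 0.05, all higher, against 54.6% and 3.86% of all genes. *Tnfaip3*, the A20 protein that restrains NF-kB, was at 36.9, 50.9 and 62.9 CPM against 29.1, 22.6 and 27.7 CPM (0.92, adjusted p = 0.212), and *Nfkbiz*, another NF-kB regulator, lay in the same direction (0.78, 0.380). Of 32 chemokine genes 3 (9.38%) were higher at unadjusted p under 0.05, and of 24 Toll-like receptor genes 2 (8.33%), against 3.86% of all genes. None of these passed the adjusted threshold.

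Adhesion molecules mediate the passage of leukocytes through the endothelium. Of 28 tested, 24 were above 0, against 54.6% of all genes, and 3 (10.7%) had an unadjusted p under 0.05, all higher, against 3.86% of all genes. The 3 were *Pecam1*, *Icam1* and *Itgax*, which encodes a leukocyte integrin. The endothelial markers, which also hold *Pecam1*, leaned the same way, with 20 of 24 (83.3%) above 0. Their median was 0.245, beside 0.286 for the adhesion list. *Pecam1*, a gene of the sort gate, was at 23.6, 25.2 and 31.8 CPM in ApoE and 19.2, 17.2 and 19.6 CPM in HTN (log2 fold change 0.53, adjusted p = 0.452), while *Icam1*, which binds leukocyte integrins, was at 11.4, 12.8 and 19.7 CPM against 10.1, 10.9 and 7.51 CPM (0.62, 0.637). Both lay higher in every ApoE library. *Vcam1* overlapped, at 208, 283 and 297 CPM against 229, 187 and 125 CPM. Of 30 angiogenesis and 16 stem cell niche genes, 1 each (3.33% and 6.25%), *Angpt1* in both, had an unadjusted p under 0.05 (0.53, 0.826), with medians of 0.28 and 0.04. Of 41 collagen and fibrosis genes 3 were higher (7.32%) and 1 lower (2.44%) at that level, against 3.86% and 2.08% of all genes. *Col1a1*, the main collagen of bone, owed its fitted value to ApoE4, where it was at 34.2 CPM against 1.20 and 1.76 CPM in the other ApoE libraries and 2.27, 1.97 and 4.36 CPM in HTN. None of the genes of these lists passed edgeR's adjusted threshold.

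Cell cycle genes lay slightly lower in ApoE. Of 40 genes of the G2 and M phases 34 were below 0, against 45.4% of all genes, with a median of -0.13, and 2 (5%) were lower at an unadjusted p under 0.05, against 2.08%. In 8 (20%) every ApoE library lay below every HTN library, against 5.08% of all genes. *Cdc20*, which activates the anaphase-promoting complex, was at 141, 149 and 135 CPM in ApoE and 187, 167 and 175 CPM in HTN (log2 fold change -0.32, adjusted p = 0.826). Of 39 replication genes 32 were below 0, against 45.4% of all genes, with a median of -0.18. Only 1 (2.56%) was lower at unadjusted p under 0.05, against 2.08% of all genes. Immediate early and heat shock genes gave 5 of 32 (15.6%) at unadjusted p under 0.05, all higher, against 3.86% of all genes, 1 of the 5 (*Fosb*) within the flank, led by the phosphatase *Dusp2* at 25.8, 28.2 and 33.6 CPM against 16.1, 17.03 and 18.4 CPM (0.76, 0.152). The heat shock gene *Hspa1a* rested on ApoE4 alone, with 13.04 CPM there and 0.712 and 0.705 CPM in ApoE2 and ApoE3 (log2 fold change 3.09, and 0.32 without ApoE4). Circadian clock genes gave 2 of 21 (9.52%), led by *Tef* (0.78, 0.354). Hypoxia and glycolysis genes gave 1 of 28 (3.57%), with a median of 0.05. In both lists these were higher in ApoE, against 3.86% of all genes. No gene of these lists passed the adjusted threshold of edgeR's test.

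**Figure D5:**
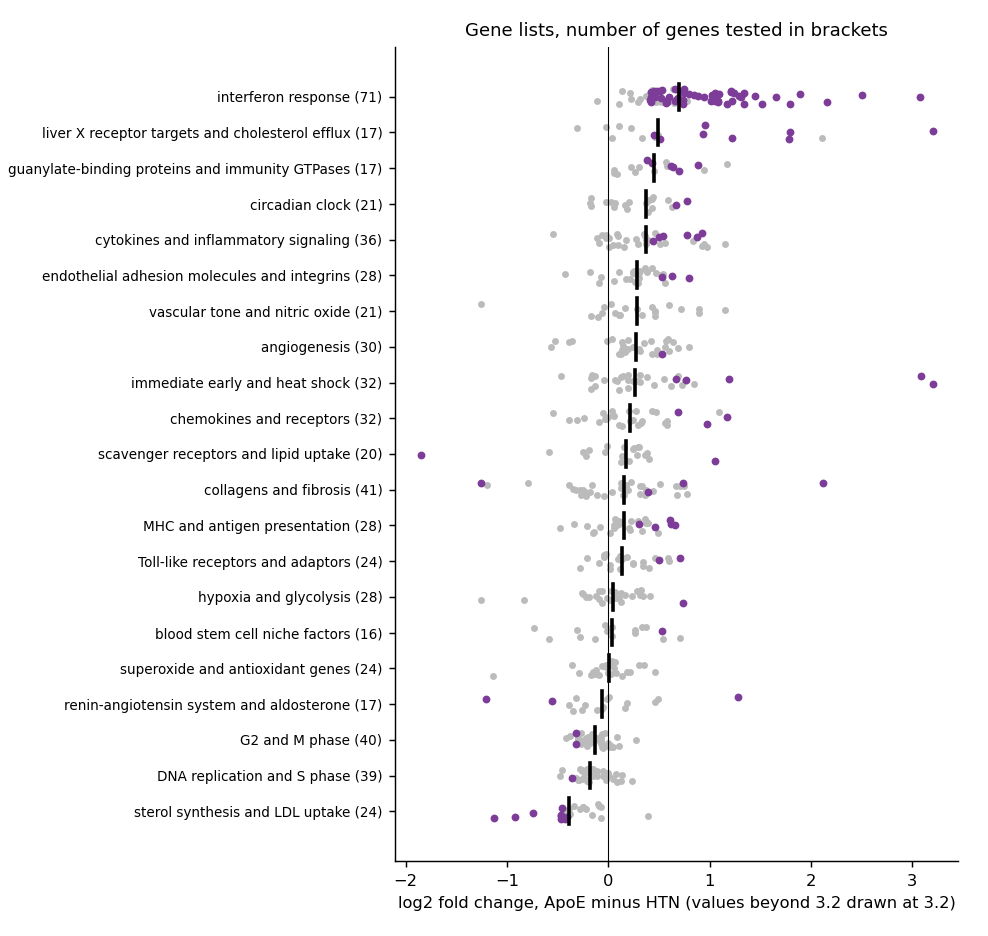
Log2 fold change of ApoE against HTN for the tested genes of 21 gene lists, 1 point per gene, with unadjusted p under 0.05 in purple and the list median as a black bar; values beyond the axis are drawn at its edge. The interferon list has the highest median, 0.70, and sterol synthesis the lowest, -0.39, while the other lists lie closer to 0.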

How the data were processed

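RNA of sorted bone marrow cells was sequenced by the authors from 12 mice, 3 each of naive, HTN, ApoE and MI. The deposited table of raw counts, 1 row for each Ensembl gene, was made by the authors from 50-base single-end reads with STAR 2.7.3a on GRCm38.p6 and Ensembl release 98, per the methods and the submitters' processing notes. Which strand column of the counter was taken is not given in the sources used here, so overlapping and antisense genes are uncertain. Reads that match several places are a further limit for paralogs and pseudogenes.

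Groups were taken from the labels. Genes were filtered with filterByExpr and scaled by TMM in edgeR 4.0.16 (R 4.3.3), and a quasi-likelihood model with 1 coefficient per group over all 12 libraries (8 residual degrees of freedom) tested ApoE minus HTN, two-sided, with Benjamini-Hochberg adjustment over 15999 genes. An adjusted p under 0.05 counted as a difference. The pipeline was tested on simulated data. Positions and overlaps came from GENCODE M21 (GRCm38), promoters from RefSeq, and pseudogene parents from BLAST 2.17.0. Alternatives were the likelihood-ratio test, which the study's methods name, DESeq2 1.42.0, RLE factors, other filters and flank widths, marker shares as covariates, a replicate block and leaving out each library. Named genes were *Apoe*, *Il6*, *Vcan*, all that passed, the next by p up to 10 in a direction outside the flank, and up to 3 members of each list by p with its defining members. Further genes of the flank, the marker lists and the pseudogene pairs were chosen after their values were seen. Members and lists were chosen with earlier results of these data known. No label says that replicate numbers mark a shared litter or day, nor which samples were processed together. Of comparisons with naive controls, only the levels and 2 lists' medians quoted are given, and comparisons with MI were not analysed here. Some genes that the rule names are not reported here. Intervals and floors cover counting error only.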

Additional observations from a re-analysis of the deposited data

How the results depend on the processing

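The count of 10 genes, 7 outside and 3 within the flank, moved with the test. It was 70 (56 and 14) with the likelihood-ratio test that the study used, 76 (65 and 11) with DESeq2, 235 (218 and 17) with no filter on low counts, and 19 (14 and 5) at an adjusted p under 0.1. It was 28 (21 and 7) with the erythroid and 27 (21 and 6) with the neutrophil marker share as a covariate, and 6 (5 and 1) with the macrophage share. The flank count was 1 also with the endothelial share and in a fit of only the 6 libraries compared, each with 7 genes in all. Leaving out 1 library gave 3 to 36 genes, 2 to 28 outside and 1 to 8 within the flank. The highest was without ApoE2 (36), and the others were 6 without ApoE3, 9 without ApoE4, 6 without HTN2, 3 without HTN3 and 4 without HTN4. The cause of these moves was not tested. *Apoe*, *Pdcd5-ps* and *Oas1g* passed in each of the 19 alternatives in which they were fitted. The interferon median ranged from 0.50, with the plasmacytoid dendritic cell share as a covariate, a fit added after seeing the data, to 0.78, and from 0.61 to 0.78 when 1 library was left out. The number of its genes past the threshold was 14 with the likelihood-ratio test, 20 with DESeq2 and 8 without ApoE2, and 1 with the replicate block and without each of the other libraries. Beyond single libraries, *Ceacam19* (adjusted p = 0.0528), *Oas1a* (0.109) and *Ube2m* (0.153) were not past the threshold in the fit of 6 libraries, nor with the endothelial (0.0575, 0.0774 and 0.0512) or macrophage share (0.0663, 0.103 and 0.0524), and *Oas1a* (0.309) and *Ube2m* (0.124) not with the plasmacytoid dendritic cell share. *Vcan* changed sign without ApoE4 (-0.18), HTN2 (-0.07) or HTN4 (-0.13), lay at up to 0.36 when another library was left out, and at up to 0.52 over all its alternatives, never past the threshold.

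Deviations of libraries with the same number correlated at -0.282, 0.0704 and -0.263, so the numbers are not taken as pairs. A fit with the replicate number as a block gave 7 genes, 5 outside and 2 within the flank, and an interferon median of 0.70. *Gm1840* (adjusted p = 0.0531), *Oas1a* (0.0905) and *Ube2m* (0.0545) were not past the threshold in it. With 3 mice a group an exact permutation test of 3 against 3 cannot go below 0.10. RLE factors, leaving out immunoglobulin and hemoglobin genes, or a 2-fold minimum kept the count at 10. Flank widths of 10 and 40 Mb kept it at 3.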

Other observations

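Markers of several blood cell types were measured, although lineage depletion and the CD45- gate would remove most of these cells, and where their reads came from was not tested. In the lists described here 0 genes passed edgeR's adjusted threshold. Of 16 stem and progenitor cell markers 14 were above 0 in ApoE relative to HTN and 7 (43.8%) had an unadjusted p under 0.05, all higher, against 3.86% of all genes. Their sum held 354 to 444 CPM in ApoE and 282 to 306 CPM in HTN. *Mycn*, a transcription factor of stem cells, was at 3.29, 3.47 and 5.91 CPM in ApoE and 1.41, 1.93 and 2.00 CPM in HTN (log2 fold change 1.25, adjusted p = 0.328). *Gata2*, a factor of stem cells and of the mast cell lineage, was at 35.0, 44.0 and 46.5 CPM against 26.5, 25.4 and 30.9 CPM (0.60, adjusted p = 0.426). Neither gene's libraries overlapped between the groups. The list of basophil and mast cell markers holds *Il6* and shares *Kit* and *Gata2* with the stem and progenitor list. All 12 tested basophil and mast cell markers were above 0, against 54.6% of all genes. At an unadjusted p under 0.05, 6 (50%) were higher, against 3.86% of all genes. Among the 6 was *Cpa3*, a mast cell protease, at 39.6, 38.8 and 31.9 CPM against 26.2, 22.03 and 19.6 CPM (0.70, adjusted p = 0.306). The summed level of that list overlapped, 2985 to 7567 CPM in ApoE and 3738 to 4758 CPM in HTN.

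Of 15 macrophage markers 14 were above 0, against 54.6% of all genes. At an unadjusted p under 0.05, 5 (33.3%) were higher and 0 lower, against 3.86% and 2.08% of all genes. *Cd5l*, an apoptosis inhibitor secreted by tissue macrophages, was at 43.2, 71.5 and 49.8 CPM in ApoE and 24.9, 16.6 and 15.6 CPM in HTN (log2 fold change 1.53, adjusted p = 0.152, edgeR). The summed list overlapped, 1789 to 2314 CPM against 1615 to 2172 CPM. *Vsig4*, a complement receptor of resident macrophages, is not in this list and was named for its small p. It was at 6.23, 14.04 and 2.34 CPM against 0.953, 0.438 and 0.300 CPM (3.71, adjusted p = 0.0810, edgeR). For *Cd5l* and *Vsig4* the ApoE libraries lay above all HTN libraries. *Marco*, of the scavenger receptor list, went the other way with overlapping libraries (-1.85, adjusted p = 0.695, edgeR). *Cd3e*, a chain of the T cell receptor complex, was at 2.54, 3.58 and 4.64 CPM against 1.45, 1.10 and 1.00 CPM (1.59, adjusted p = 0.105), while *Gzma*, granzyme A of cytotoxic cells, was at 6.72, 8.05 and 6.67 CPM against 13.3, 11.3 and 9.66 CPM (-0.68, adjusted p = 0.337). Of 21 T and NK cell markers 18 were above 0, against 54.6% of all genes. At an unadjusted p under 0.05, 4 (19.0%) were higher and 1 (4.76%), *Gzma*, was lower, against 3.86% and 2.08% of all genes. The summed T and NK cell markers overlapped.

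B cell markers summed to 7190 to 11024 CPM in ApoE and 4113 to 6660 CPM in HTN, without overlap. However, MI3 and MI4, at 7695 and 9497 CPM, lay within the ApoE range. The B cell list as a whole had no direction, with 10 of 19 markers (52.6%) above 0, against 54.6% of all genes, and a median of 0.06. At an unadjusted p under 0.05, 1 (5.26%) was higher, against 3.86% of all genes. Of 86 tested variable segments of the immunoglobulin kappa chain 19 were higher and 3 lower at an unadjusted p under 0.05, and of 76 of the heavy chain 13 were higher and 2 lower, against 3.86% and 2.08% of all genes. The heavy-chain segment *Ighv11-2* went the other way, at 3.87, 2.23 and 5.14 CPM in ApoE against 25.5, 31.4 and 28.3 CPM in HTN and 45.1 CPM in naive controls (log2 fold change -2.91, SE 0.48), and missed the threshold with an adjusted p of 0.0537 by edgeR's quasi-likelihood test. Variable segments are similar in sequence, so their counts are uncertain. *Ighg1* was at 18.1, 12.7 and 9.52 CPM in ApoE and 78.2, 51.3 and 40.3 CPM in HTN (-2.07, adjusted p = 0.695), the highest ApoE library below the lowest of HTN. *Gal*, the neuropeptide galanin, was at 2.62, 3.70 and 2.50 CPM against 4.90, 5.74 and 5.01 CPM (-0.83, adjusted p = 0.361), and *Pdia2*, a disulfide isomerase, had a log2 fold change of -0.77 (adjusted p = 0.361).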
